A study of Mus musculus with 18 samples.

Results

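The microRNAs (miRNAs) of the miR-23, miR-27 and miR-24 clusters were followed in mouse femoral condyle cartilage, in a model in which a mechanical load tears the anterior cruciate ligament (ACL). Members were chosen by name: the deposited table was searched for mmu-miR-23a-5p, mmu-miR-23a-3p, mmu-miR-23b-5p, mmu-miR-23b-3p, mmu-miR-27a-5p, mmu-miR-27a-3p, mmu-miR-27b-5p, mmu-miR-27b-3p, mmu-miR-24-2-5p and mmu-miR-24-3p, named below without the mouse prefix mmu. All 10 names were found among the 1412 miRNAs of the table, and all 10 were among the 428 that passed the filter on low counts. 5 members come from the a cluster on chromosome 8, 4 come from the b cluster on chromosome 13, and miR-24-3p can come from either.

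Small RNA was sequenced in 18 libraries of cartilage caps cut from the femoral condyles of C57bl6 mice aged 12 weeks. In the injured mice the right knee received a load of 12 N that ruptured the ACL, and cartilage was taken 1 or 7 days later from the injured right knee (ACL, n = 3 libraries per day) and from the unloaded left knee (contralateral, n = 3 per day). Cartilage of untreated mice, labelled naïve and taken with the day 7 animals, gave the remaining 6 libraries. Each library is a pool: the description of the series gives 4 mice per sample, whereas the methods of the study give 2 mice per library at day 1, 4 at day 7 and 2 knees per naïve library. ACL and contralateral libraries of a day therefore come from the same animals. The study lists 6 naïve mice and kept left and right knees in separate pools, so naïve libraries share mice as well. Which libraries share a pool is not given in the labels. The tests treated each library as separate, the 6 naïve ones included. Their p-values measure the spread between libraries, some of which share mice, and not the spread between independent groups of mice.

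A miRNA hairpin is cut from a longer transcript, and each of its arms, the 5p and the 3p, can be loaded onto an Argonaute protein, which it guides to target messenger RNAs mainly by pairing through its seed. The miR-23, miR-27 and miR-24 hairpins lie side by side at both loci and are thought to be made from a common primary transcript at each, although the mature products of a shared transcript often accumulate to unequal levels. The clusters are known chiefly from endothelial cells, muscle and blood lineages, and miR-27 has been studied in chondrocytes as a miRNA that responds to load and that can target the message of the collagenase MMP13.

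In GRCm38 the a cluster covered chr8:84208518-84208921 on the plus strand, 404 bases that hold Mir23a (chr8:84208518-84208592), Mir27a (chr8:84208672-84208758) and Mir24-2 (chr8:84208815-84208921). No other annotated gene overlapped Mir23a or Mir27a, and Mir24-2 overlapped an exon of the long non-coding RNA gene Gm26532. The b cluster covered chr13:63300484-63301275, also on the plus strand, 792 bases. Mir23b (chr13:63300484-63300557) lay in an intron of 2010111I01Rik, a protein-coding gene of the same strand. Mir27b (chr13:63300712-63300784) and Mir24-1 (chr13:63301208-63301275) each overlapped an exon of that gene. All of these hairpins were intronic in Fancc, which runs on the opposite strand.

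**Figure D1:**
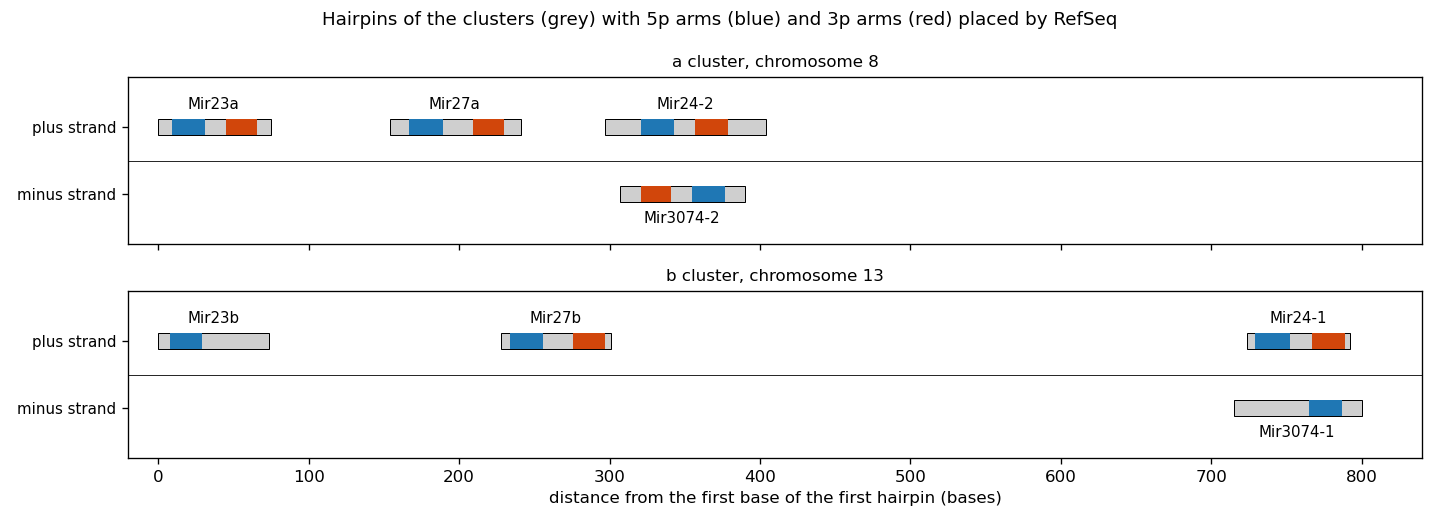
Hairpins of the a cluster and the b cluster (grey) drawn to scale, with 5p arms in blue and 3p arms in red where RefSeq places them, and the distance in bases from the start of the first hairpin of each cluster on the horizontal axis. The a cluster spans 404 bases and the b cluster 792, and in both a miR-3074 hairpin lies on the minus strand across the miR-24 hairpin.

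The mature sequences show which members can be told apart by their reads and which share a seed. They are RefSeq entries of the GRCm38.p6 annotation, written 5′ to 3′ with the seed, bases 2 to 8, in capitals, and were matched for 9 of the 10 members (miR-23b-3p is named only). The abundant 3p arms come first, then the 5p arms.
miR-27a-3p: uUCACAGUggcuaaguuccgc
miR-27b-3p: uUCACAGUggcuaaguucugc
miR-23a-3p: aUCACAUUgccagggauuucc
miR-24-3p: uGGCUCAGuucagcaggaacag
miR-27a-5p: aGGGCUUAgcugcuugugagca
miR-27b-5p: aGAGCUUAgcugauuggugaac
miR-23a-5p: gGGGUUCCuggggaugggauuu
miR-23b-5p: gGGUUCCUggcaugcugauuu
miR-24-2-5p: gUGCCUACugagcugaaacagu
miR-24-1-5p: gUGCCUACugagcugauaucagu

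Among the 9 members with a sequence, miR-27a-3p and miR-27b-3p were the pair that shared a seed, and no seed was compared for miR-23b-3p. They were identical over the first 18 of 21 bases and differed by a single substitution, C19U, counted from the 5′ end with the base of miR-27a-3p first, so a read that ends before that base cannot be given to either cluster. The 5p arms were further apart. miR-27a-5p and miR-27b-5p differed at 8 positions, the first of them G3A inside the seed. Compared base by base from the 5′ end, miR-23a-5p and miR-23b-5p were identical over their first 3 bases, and their seeds differed. Their sequences hold a longer common stretch when shifted against each other by a single base. miR-24-3p has the same sequence at chr8:84208875-84208896 and chr13:63301251-63301272 and is a single entry of the table, whereas its 5p partners differ: miR-24-2-5p and miR-24-1-5p, the latter described below as a companion and not counted as a member, shared the first 16 bases and the seed. How the counting divided reads that match several entries is not given in the sources used here.

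The libraries held 758388 to 4088852 counts, and the 10 members took 2.24% to 5.57% of them. By group, their share was 4.42% ± 0.568 (SD, n = 6) in naïve, 4.14% ± 0.350 (n = 3) in day 1 contralateral, 4.05% ± 0.558 (n = 3) in day 1 ACL, 3.66% ± 1.25 (n = 3) in day 7 contralateral and 5.08% ± 0.632 (n = 3) in day 7 ACL libraries. The cartilage label was compared with lists of marker miRNAs. The 4 cartilage miRNAs (both arms of miR-140 and miR-455) summed to 5029 to 10499 CPM (normalised counts, scaled by library total and TMM) and none was at 0 in any library, but the 4 skeletal muscle miRNAs summed to 55088 to 274713 CPM and the 2 arms of the endothelial miR-126a to 36497 to 79299 CPM, so every library also carried much RNA typical of other tissues. In such bulk samples fewer cells of a type and less RNA per cell cannot be told apart.

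Replicate 1 of the day 7 contralateral group stood apart from the other 17 libraries in several members. Its miR-27a-3p was 2202 CPM against 8012 CPM in the next lowest library, its miR-24-3p 3481 CPM against 9514 CPM, and its miR-23b-3p, at 737 CPM, was also the lowest, whereas its miR-27b-3p, at 11979.7 CPM, lay inside the range of the others. Several of the values described below moved with this library, and some are given without it too.

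The arms differed widely in level. Reads cover a whole mature miRNA, so CPM was not divided by length, but ligation favours some ends over others and ranks between miRNAs are approximate. miR-27b-3p was the most abundant member, at 15592 ± 3748 CPM (SD, n = 18 libraries), rank 13 of the 428 tested miRNAs. miR-27a-3p followed at 11547.5 ± 3380.3 CPM (rank 18) and miR-24-3p at 10856 ± 2267 CPM (rank 19), and these neighbours lay within 1 SD of each other. miR-23a-3p was several times lower, at 2256 ± 428 CPM (rank 49), followed by miR-24-2-5p at 1319 ± 394 CPM (rank 65) and miR-23b-3p at 1210.2 ± 249.8 CPM (rank 67), which again differed by less than their spread. Of the minor arms, miR-27a-5p reached 253 ± 90.9 CPM and miR-27b-5p 26.7 ± 7.84 CPM (rank 260). The miR-23 minor arms were close to the detection limit, with miR-23b-5p at 6.43 ± 3.31 CPM (rank 364) and miR-23a-5p at 3.83 ± 1.62 CPM (rank 407). Their counts were 5 to 32 and 2 to 30 per library, so that counting error alone is a large part of any value for them.

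**Figure D2:**
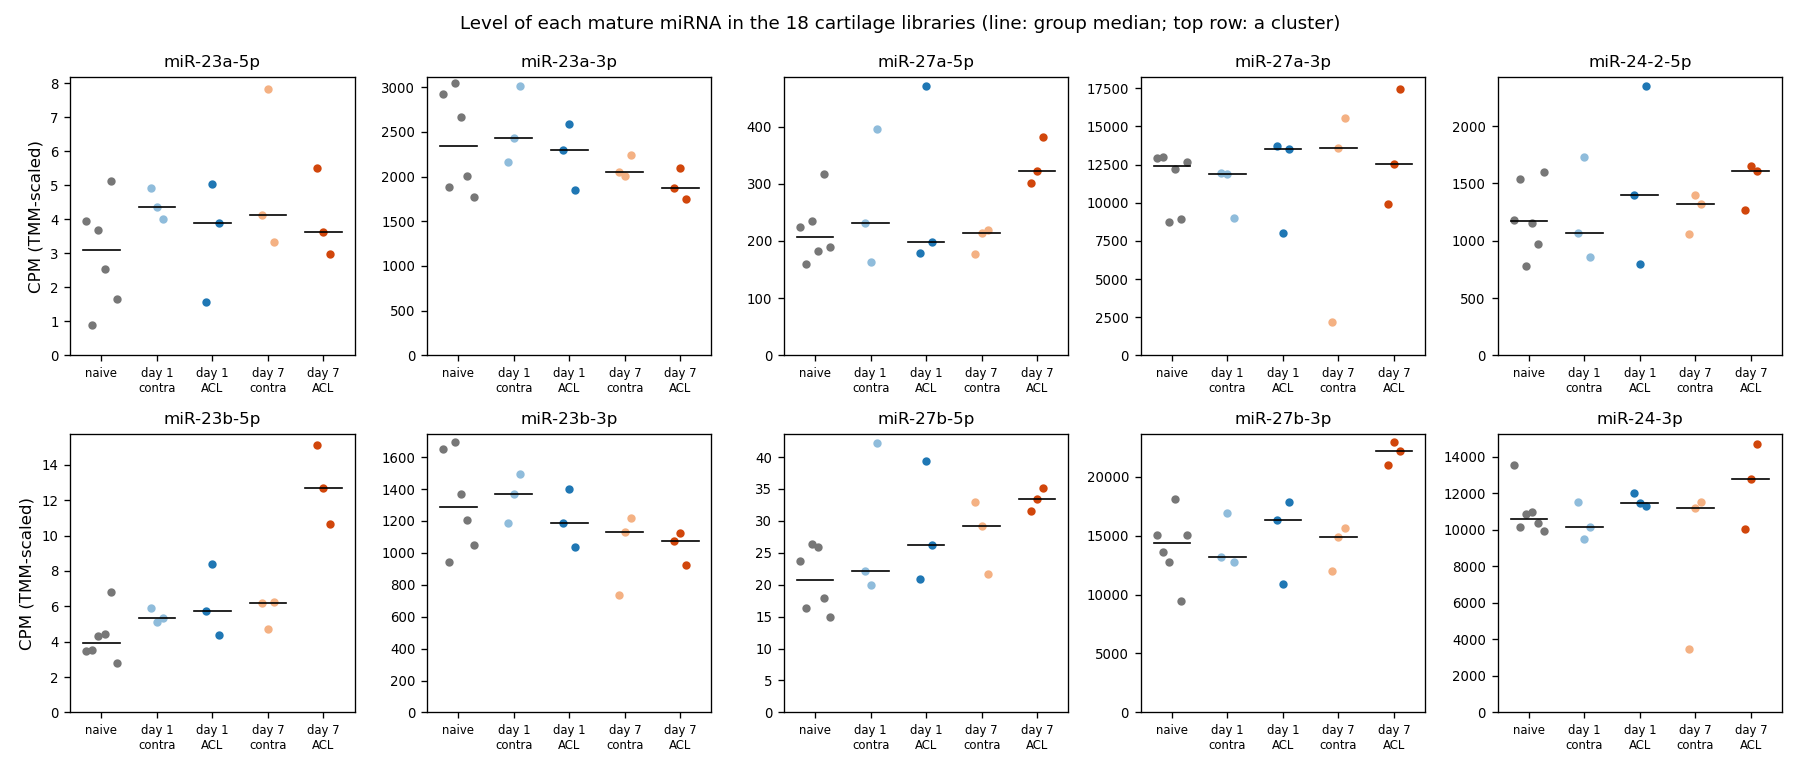
CPM of each of the 10 members in each library by group, on linear axes, with a line at the group median. The day 7 ACL libraries lie at 10.6 to 15.1 CPM for miR-23b-5p and at 20964 to 22923 CPM for miR-27b-3p, above every other library in both panels.

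Injured cartilage was set against naïve cartilage at day 7 to ask which members had changed a week after the rupture. miR-23b-5p, the minor arm of the b cluster's miR-23 hairpin, and miR-27b-3p, the major arm of its miR-27 hairpin, rose, and no member fell. The count was 2 of 10 members past an adjusted p of 0.05 (limma-voom, Benjamini-Hochberg), against 18.2% of all tested miRNAs in either direction (14.5% higher and 3.74% lower). This share is near the background. The median log2 fold change of the 10 members was 0.43, beside -0.00 for all 428 miRNAs.

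miR-23b-5p measured 2.77, 3.93 and 6.83 CPM (lowest, median and highest) in the naïve libraries and 15.1, 12.7 and 10.6 CPM in day 7 ACL replicates 1, 2 and 3, from 5 to 8 counts against 11, 28 and 32 counts. Every day 7 ACL library was above every naïve library. The fitted rise was 2.96-fold (log2 fold change 1.56 ± 0.30 SE, 95% interval 0.94 to 2.19, adjusted p = 0.000641 by limma-voom with Benjamini-Hochberg adjustment). It passed the threshold in all 18 fits that left out 1 library, at log2 values of 1.52 to 1.76.

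miR-27b-3p, the arm that shares its seed with miR-27a-3p, measured 9433, 14354 and 18119 CPM (lowest, median and highest) in the naïve libraries. In day 7 ACL cartilage it reached 20964, 22923 and 22133 CPM in the 3 replicates, a mean of 22007 ± 985 CPM (SD, n = 3), again with no overlap. The rise was 1.60-fold (log2 fold change 0.68 ± 0.20, interval 0.26 to 1.09, adjusted p = 0.0196 by limma-voom with Benjamini-Hochberg adjustment). Without day 7 ACL replicate 2 the adjusted p was 0.0657, and without replicate 3 it was 0.0606, with log2 fold changes of 0.67 and 0.69. It passed in the other 16 of 18 such fits.

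A further member had groups that did not overlap: miR-27b-5p, at 14.9, 20.8 and 26.4 CPM in naïve and 31.6, 33.5 and 35.2 CPM in day 7 ACL libraries. Its log2 fold change was 0.72 ± 0.28, with an adjusted p of 0.0976 (limma-voom, Benjamini-Hochberg). It was 0.76 with an adjusted p of 0.0474 when day 7 contralateral replicate 1, a library of neither group, was left out of the fit. That was the only 1 of 18 fits without a library to pass, and the adjusted p reached 0.290 in the others. In all, 3 of 10 members, each from the b cluster, had every day 7 ACL library above every naïve one, against 15.4% of all tested miRNAs, and none had every library below, against 8.64%.

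The remaining 7 members did not pass. miR-27a-5p measured 159.8, 207 and 317 CPM in naïve (lowest, median and highest) and 301, 322 and 383 CPM in day 7 ACL libraries, which overlapped through the highest naïve library, with a log2 fold change of 0.66 ± 0.31 and an adjusted p of 0.174 (limma-voom, Benjamini-Hochberg). miR-27a-3p, the a cluster counterpart of miR-27b-3p, measured 8771, 12438 and 12974 CPM in naïve and 9905, 12540.2 and 17464 CPM in day 7 ACL libraries, with a log2 fold change of 0.22 and an interval of -0.64 to 1.07. The injured libraries were spread across and above the naïve range. For miR-24-3p the log2 fold change was 0.19 (interval -0.37 to 0.76), for miR-24-2-5p 0.37 (-0.26 to 1.00) and for miR-23a-5p 0.50 (-0.53 to 1.52).

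The major arms of miR-23 had values below 0 in this comparison. miR-23a-3p measured 1766, 2338 and 3045 CPM in naïve and 1873, 2091 and 1744 CPM in day 7 ACL libraries (log2 fold change -0.29, interval -0.73 to 0.15, adjusted p = 0.413, limma-voom with Benjamini-Hochberg adjustment). miR-23b-3p measured 942, 1286 and 1696 CPM in naïve and 1073, 1123 and 926 CPM in day 7 ACL libraries (log2 fold change -0.31, interval -0.79 to 0.16, adjusted p = 0.413). In both, the injured libraries overlapped the lower part of the naïve range.

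**Figure D3:**
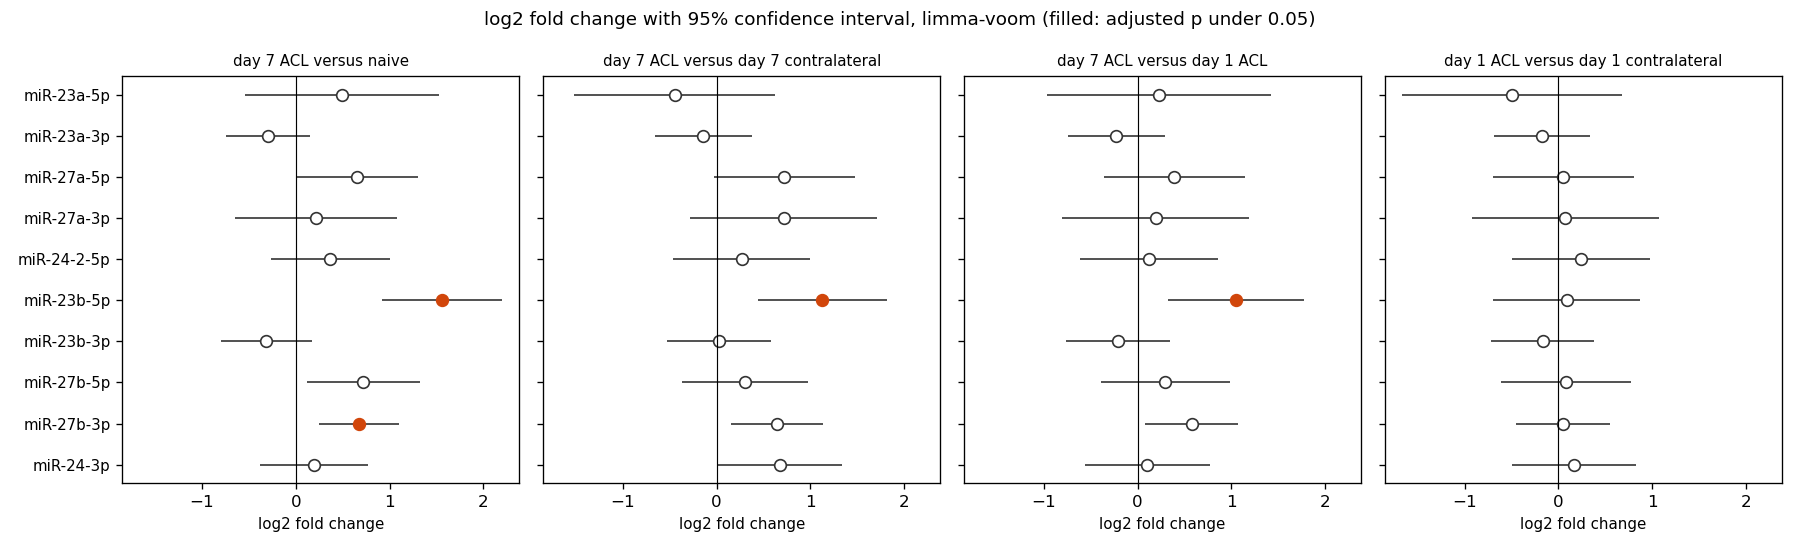
Log2 fold change of each member with its 95% confidence interval from limma-voom in 4 comparisons, with filled points where the adjusted p was under 0.05. miR-23b-5p is filled in the 3 comparisons that involve day 7 ACL cartilage, at 1.56, 1.13 and 1.05, and miR-27b-3p in the comparison with naïve only, at 0.68, where its values against the contralateral knee (0.64) and against day 1 (0.58) are close to it but unfilled.

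The injured knee was also set against the contralateral knee at day 7, which asks about the injured joint within the same mice. These day 7 ACL libraries are the ones used above, so this comparison is not an independent repeat. 1 of 10 members passed, miR-23b-5p, against 14.7% of all tested miRNAs (13.8% higher and 0.935% lower). miR-23b-5p measured 6.18, 4.70 and 6.24 CPM in the contralateral replicates, all below the 10.6 to 15.1 CPM of the injured knees, a 2.19-fold difference (log2 fold change 1.13 ± 0.32, interval 0.45 to 1.81, adjusted p = 0.0223 by limma-voom with Benjamini-Hochberg adjustment). The call was lost without day 7 contralateral replicate 2 (log2 fold change 1.00, adjusted p = 0.0846) and without day 7 ACL replicate 2 (1.16, adjusted p = 0.0603). It was also lost under 3 of 8 other settings, among them scaling by library totals (1.13, adjusted p = 0.111).

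miR-27b-3p measured 11979.7, 14879 and 15679.8 CPM in the day 7 contralateral libraries, all below the injured ones. Its log2 fold change of 0.64 ± 0.23 missed the threshold with an adjusted p of 0.0707 (limma-voom, Benjamini-Hochberg), and it passed in 9 of the 18 fits that left out a library. miR-27a-5p had no overlap either, at 176, 213 and 219 CPM in the contralateral knees (log2 fold change 0.72, adjusted p = 0.230). That gave 3 of 10 members with no overlap upwards, against 17.5% of all tested miRNAs, and 0 downwards, against 9.11%.

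Several of the remaining differences rested on replicate 1 of the contralateral group. miR-27a-3p measured 2202, 13574 and 15568 CPM in that group, and its log2 fold change of 0.71 (interval -0.28 to 1.71) became -0.06 without the first of these libraries. For miR-24-3p, at 3481, 11173 and 11521 CPM, the value of 0.68 (interval 0.02 to 1.33, adjusted p = 0.191 by limma-voom with Benjamini-Hochberg adjustment) became 0.21, and for miR-23b-3p, at 737, 1133 and 1219 CPM, 0.03 became -0.12. miR-23b-5p stayed past the threshold without this library, at 1.26 with an adjusted p of 0.0128.

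From day 1 to day 7 after injury, 1 of 10 members passed, against 15.7% of all tested miRNAs (12.1% higher and 3.5% lower), and it was again miR-23b-5p. It measured 5.74, 8.38 and 4.37 CPM at day 1, below all 3 day 7 libraries (2.07-fold, log2 fold change 1.05 ± 0.34, interval 0.34 to 1.77, adjusted p = 0.0424 by limma-voom with Benjamini-Hochberg adjustment). This call is fragile, since it was lost in 5 of 18 fits without a library: day 1 ACL replicate 1 (adjusted p = 0.0593) or 3 (0.164), naïve replicate 2 (0.0518), or day 7 ACL replicate 1 (0.0558) or 2 (0.0689). miR-27b-3p, at 16309.9, 10875 and 17849 CPM at day 1, lay below the day 7 libraries with a log2 fold change of 0.58 ± 0.23 and an adjusted p of 0.103, which became 0.71 and 0.0196 without day 7 contralateral replicate 1. Over the 18 fits without a library its adjusted p by limma-voom ran from 0.0196 to 0.211, and 9 of them passed. These 2 members had no overlap upwards, against 18.7% of all tested miRNAs, with none downwards against 15.7%, and the other 8 had log2 fold changes of -0.22 to 0.39.

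At day 1 the clusters showed no change past the threshold. Neither against naïve (log2 fold changes of -0.11 to 0.51) nor against the day 1 contralateral knee (-0.50 to 0.24) did any member pass, and the same was true of all 428 miRNAs (0%), of which 8 in each comparison had an unadjusted limma-voom p under 0.05, none of them a member. miR-27b-3p measured 13179, 16943 and 12797 CPM in day 1 contralateral cartilage and 16309.9, 10875 and 17849 CPM in the injured knee, and these ranges overlapped. No member had groups without overlap, against 2.34% of all miRNAs upwards and 6.31% downwards between the day 1 knees, and 0.467% and 0.935% against naïve.

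The contralateral knees were compared with naïve cartilage in the same way. No miRNA passed at day 1 or at day 7 (0% in both), with 4 and 23 of 428 at an unadjusted limma-voom p under 0.05, none of them a member. At day 7 the largest value was that of miR-23a-5p, with a log2 fold change of 0.95 (interval -0.01 to 1.90), from 0.888, 3.11 and 5.12 CPM in naïve against 4.12, 7.83 and 3.33 CPM in contralateral libraries, which overlapped. No member had groups without overlap, against at most 0.935% of all miRNAs upwards or downwards. The edgeR quasi-likelihood test and the DESeq2 Wald test also called 0 members in these comparisons and in those at day 1.

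Whether the difference between injured and contralateral knees was larger at day 7 than at day 1 was tested directly. 0 of 10 members passed, against 6.78% of all tested miRNAs, and neither the edgeR quasi-likelihood nor the DESeq2 Wald test called any. miR-23b-5p had the largest value, 1.04 ± 0.49 on the log2 scale (interval 0.02 to 2.07, unadjusted p = 0.0469, adjusted p = 0.291, limma-voom with Benjamini-Hochberg adjustment), and was the 1 member with an unadjusted p under 0.05. miR-27b-3p had 0.59 ± 0.33 (interval -0.10 to 1.27, adjusted p = 0.385).

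The balance of the arms was measured as the ratio of 3p to 5p counts of a hairpin within a library, which does not depend on library scaling. All 5 member hairpins held more 3p than 5p reads, as did 44 of the 112 hairpins with both arms tested (39.3%). The excess ranged from 3.29 to 14.4 for miR-24-2, with miR-24-3p taken as its 3p arm, through 12.5 to 81.1 for miR-27a, 68.0 to 447 for miR-23b and 273 to 990.5 for miR-27b, to 252 to 1693 for miR-23a. A strong excess of the 3p arm was thus shared by miR-23 and miR-27 at both loci, and miR-24-2 was the least one-sided.

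Between naïve and day 7 ACL cartilage miR-23b was alone of these 5 hairpins in having a balance that changed past the threshold. Its 3p arm exceeded its 5p arm 166-fold, 317-fold and 447-fold (lowest, median and highest) in naïve libraries, but 68.0-fold, 87.1-fold and 85.8-fold in day 7 ACL replicates 1, 2 and 3, so that the 5p arm made up at most 0.564% of the hairpin's reads in naïve and as much as 1.39% in injured cartilage. The ratio was 3.72-fold lower at day 7 (log2 difference -1.89 ± 0.33, interval -2.58 to -1.20, adjusted p = 0.00155 by limma with Benjamini-Hochberg adjustment over 112 hairpins), with no overlap, and passed in all 18 fits without a library. It was 1 of 5 member hairpins called, against 1.79% of all hairpins. The 5p counts behind it are the 5 to 32 reads given above.

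Against the other groups the same ratio missed the threshold. It was 113, 235 and 189 in day 7 contralateral libraries, above all injured ones (log2 difference -1.10 ± 0.38, unadjusted p = 0.00914, adjusted p = 0.259 by limma with Benjamini-Hochberg adjustment). No hairpin at all was called there (0%), with 7 of 112 at an unadjusted p under 0.05. At day 1 it was 198, 159 and 225 in ACL libraries (day 7 against day 1: -1.26 ± 0.38, adjusted p = 0.130, with 1.79% of hairpins called and no member among them). Without day 7 contralateral replicate 1, a library of neither group, the day 7 against day 1 difference passed, at -1.26 with an adjusted p of 0.0359. It was the only 1 of 18 fits without a library to do so, and the adjusted p by limma reached 0.494 in the others. The contralateral knees themselves measured -0.79 ± 0.33 against naïve at day 7 (interval -1.48 to -0.10, unadjusted p = 0.0264, adjusted p = 0.357), and miR-23a measured -0.95 ± 0.44 in the same comparison (interval -1.88 to -0.03, unadjusted p = 0.0444, adjusted p = 0.357). There limma called none of 112 hairpins and 14 had an unadjusted p under 0.05.

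The other 4 hairpins gave log2 differences between day 7 ACL and naïve of -0.85 (interval -1.77 to 0.08) for miR-23a, -0.45 (-1.59 to 0.69) for miR-27a, -0.18 (-1.01 to 0.64) for miR-24-2 and -0.03 (-0.79 to 0.73) for miR-27b. For miR-27b both arms had similar log2 fold changes, 0.68 and 0.72, and its ratio was 626 to 680 in the injured libraries, inside the naïve range of 479 to 990.5.

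**Figure D4:**
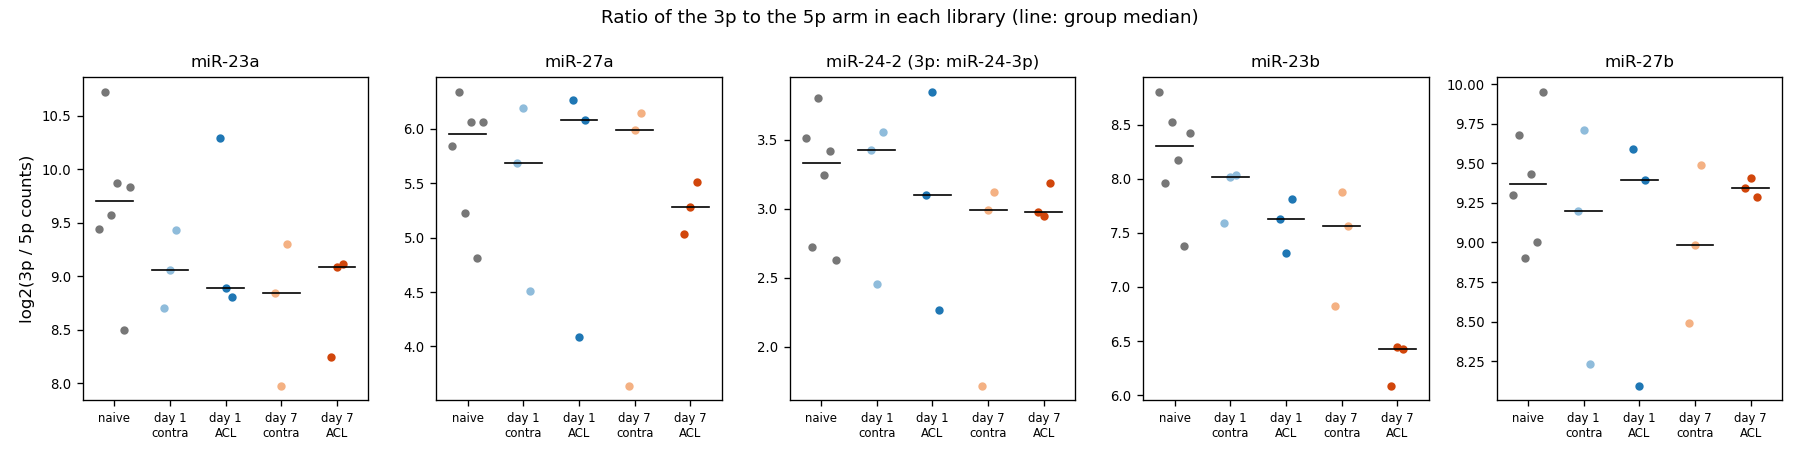
Log2 ratio of 3p to 5p counts of each hairpin in each library by group, with a line at the group median and a separate vertical scale per panel. For miR-23b the day 7 ACL libraries lie at ratios of 68.0 to 87.1, below the 113 to 447 of all other libraries, while the other 4 hairpins show overlapping groups.

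The a and b copies of an arm were compared as a ratio within each library. For the major arm of miR-23 this ratio was almost constant: 1.67 to 1.99 in naïve and 1.74 to 2.02 in the other libraries except day 7 contralateral replicate 1, where it was 2.77. Its log2 difference between day 7 ACL and naïve was 0.02 (two-sided exact permutation p = 0.798, 1 after Benjamini-Hochberg adjustment over 12 such tests). miR-23a-3p was the more abundant copy in all 18 libraries. The deviations of the 2 arms from their group means correlated with r = 0.83 over the 18 libraries and 0.95 without day 7 contralateral replicate 1, a description of libraries that share depth and composition. As miR-23b-3p had no matched sequence, how far reads of the 2 arms can be told apart was not tested. Their counts may therefore not be separate measurements, which also bears on the other ratios that use miR-23b-3p.

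For miR-27 the a to b ratio of the major arms was lower at day 7 by a margin that did not pass the adjusted test. The ratio of miR-27a-3p to miR-27b-3p was 0.674, 0.848 and 0.952 (lowest, median and highest) in naïve libraries and 0.472, 0.547 and 0.789 in day 7 ACL replicates 1, 2 and 3, the first 2 of which lay below every naïve library. The log2 difference was -0.47, with a two-sided exact permutation p of 0.0476 that became 0.357 after Benjamini-Hochberg adjustment over 12 tests. Against the day 7 contralateral knee it was 0.10, and -0.69 without replicate 1, whose ratio was 0.184 beside 0.912 and 0.993 in the other 2. As 3 against 3 libraries cannot give a p below 0.1, no comparison between knees could pass. With 3 against 6 libraries the smallest exact permutation p is 0.0119. Over 12 tests it passes only if several ratios reach it together. The adjusted p therefore does not decide whether a single ratio differed from naïve.

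The minor arms had wider ratios. miR-23a-5p to miR-23b-5p was 0.294, 0.701 and 1.13 (lowest, median and highest) in naïve and 0.391, 0.298 and 0.292 in day 7 ACL libraries (log2 difference -1.03, two-sided exact permutation p = 0.0595, adjusted 0.357), and lay below all 3 day 7 contralateral libraries, at 0.684, 1.65 and 0.548 (log2 difference -1.39, p = 0.1, the smallest that this exact permutation test allows, adjusted 0.4). miR-27a-5p to miR-27b-5p was 6.95 to 17.3 in naïve and 9.34 to 10.8 in day 7 ACL libraries (log2 difference -0.06, exact permutation p = 0.810). For miR-27 the order of the clusters was opposite in the 2 arms: in all 18 libraries the 3p arm had more reads of b than of a, and the 5p arm more of a than of b. At day 1 the 4 log2 differences between ACL and contralateral knees ran from -0.57 to 0.02, with adjusted exact permutation p of at least 0.96.

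Members of a cluster were also set against each other, in a comparison added after the levels had been seen. In the b cluster, miR-27b-3p was 7.54, 11.2 and 14.5 times miR-23b-3p (lowest, median and highest) in naïve libraries and 19.5, 20.4 and 23.9 times in day 7 ACL replicates 1, 2 and 3. The injured libraries were above all others, with a 1.98-fold difference from naïve (log2 0.99, two-sided exact permutation p = 0.0238, 0.143 after Benjamini-Hochberg adjustment over 6 tests). Over 6 tests a single ratio at the smallest possible p of 0.0119 could not pass either, so the adjusted p does not decide this difference. Day 7 contralateral libraries gave 16.25, 13.1 and 12.9 (log2 difference 0.60, exact permutation p = 0.1). In the a cluster, miR-27a-3p was 2.88, 4.51 and 7.17 times miR-23a-3p in naïve and 5.29, 5.996 and 10.01 times in day 7 ACL libraries, which overlapped (log2 difference 0.50, exact permutation p = 0.214, adjusted 0.429). Against the contralateral knee it was 0.88 with replicate 1 of that group and -0.01 without it.

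**Figure D5:**
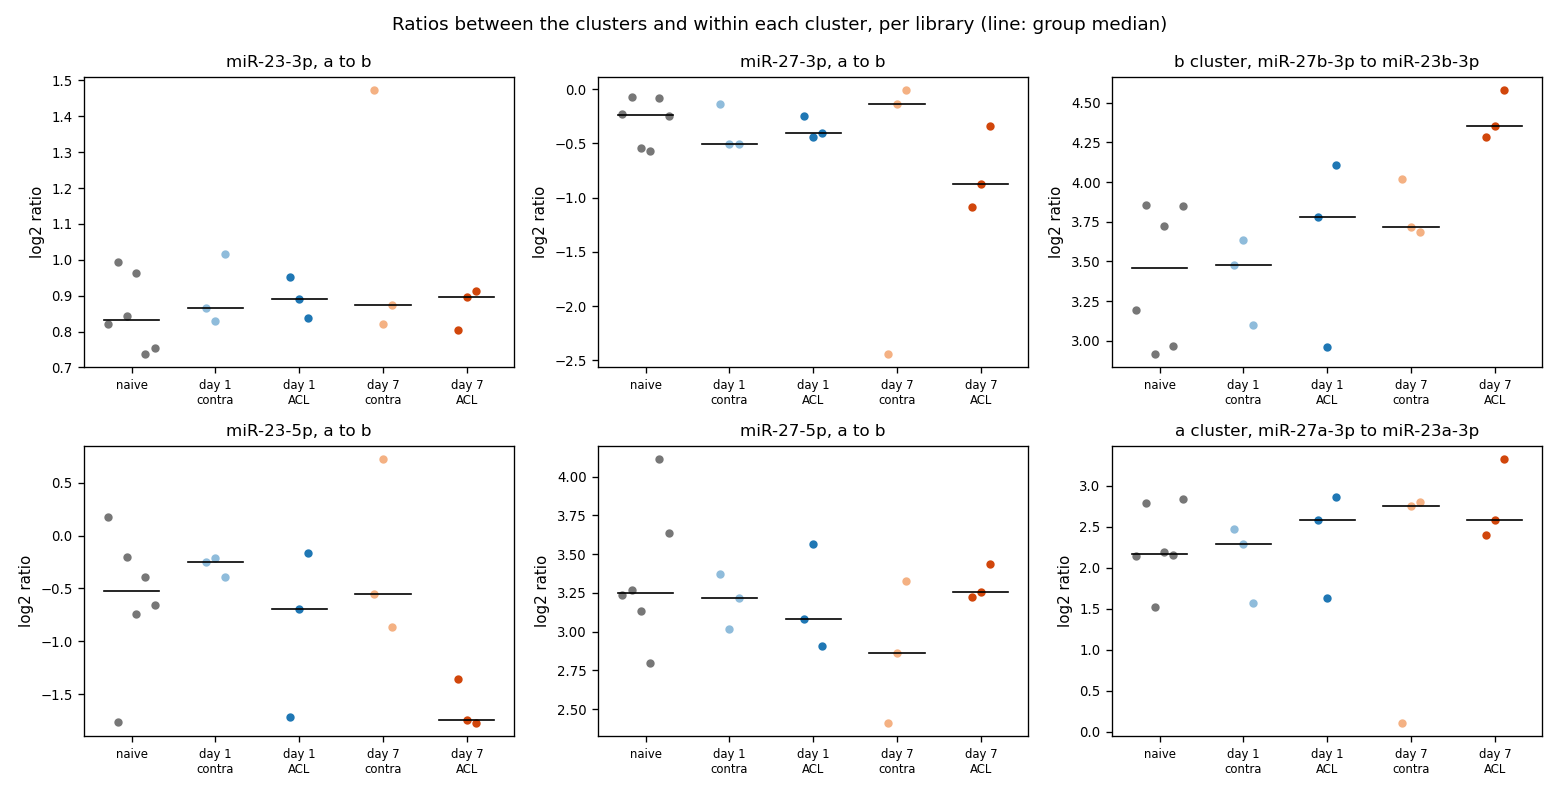
Ratios of a to b copies and of miR-27 to miR-23 within a cluster in each library by group, on log2 axes, with a line at the group median. The ratio of miR-23a-3p to miR-23b-3p is flat across groups near 1.67 to 2.02 apart from 1 day 7 contralateral library at 2.77, and the ratio of miR-27b-3p to miR-23b-3p is highest in the 3 day 7 ACL libraries, at 19.5 to 23.9.

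Summed over its members, the b cluster, without miR-24-3p, reached 22084, 24092 and 23105 CPM in day 7 ACL replicates 1, 2 and 3, where no other library exceeded 19518 CPM. The a cluster sum was 5485 CPM in day 7 contralateral replicate 1 and 11874 to 21204 CPM in the other 17 libraries. Both sums are dominated by the miR-27 3p arm, apart from the a cluster sum in day 7 contralateral replicate 1. There miR-27a-3p gave 2202 CPM and miR-23a-3p 2045 CPM.

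miR-24 differed from its neighbours in having 2 hairpins for a single 3p product. miR-24-3p measured 9918, 10611 and 13549.5 CPM (lowest, median and highest) in naïve and 10052, 12766 and 14673 CPM in day 7 ACL libraries, with overlap. The 5p arms, whose full sequences differ between the loci, were counted at 1319 ± 394 CPM for miR-24-2-5p of the a cluster and 70.5 ± 20.9 CPM for miR-24-1-5p of the b cluster (SD, n = 18). miR-24-1-5p had a log2 fold change of 0.13 (interval -0.54 to 0.79) between day 7 ACL and naïve cartilage, beside 0.37 for miR-24-2-5p. Their deviations from group means had a correlation of 0.98 over 18 libraries, and as the sequences share their first 16 bases the counts may not be separate measurements.

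Opposite-strand entries of the table lie across both miR-24 hairpins. They are shown because they pair with members base for base.
miR-3074-5p: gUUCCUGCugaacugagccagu
miR-3074-2-3p: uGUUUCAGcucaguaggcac
Bases 1 to 20 of miR-24-3p are the reverse complement of a stretch of miR-3074-5p, and bases 1 to 20 of miR-24-2-5p that of miR-3074-2-3p. miR-3074-5p, at 4126 ± 740 CPM (SD, n = 18), held 0.304 to 0.615 times the counts of miR-24-3p (median 0.390), and miR-3074-2-3p 0.0838 to 0.152 times those of miR-24-2-5p (median 0.109). Whether the strand of a read was used in the counting is not given in the sources used here, so how far these counts are separate from those of miR-24 was not tested. Neither entry passed between day 7 ACL and naïve cartilage, with log2 fold changes of 0.10 and 0.43.

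The miRNAs most alike to the 5 abundant arms were sought among 321 others with a mean of at least 10 CPM, by the Pearson correlation of deviations from group means of log2 CPM over 18 libraries that share depth and tissue composition. For miR-23a-3p they were miR-361-5p (r = 0.91), miR-872-3p (0.87) and let-7e-5p (0.66), and for miR-23b-3p miR-361-5p (0.83), miR-103-3p (0.73) and miR-872-3p (0.73). miR-27b-3p was most like miR-199a-3p and miR-199b-3p, which carry the same counts in every library (0.92 each), and miR-30a-5p (0.82). miR-27a-3p was most like miR-26b-5p (0.97), miR-497a-5p (0.95) and miR-335-5p (0.94), and miR-24-3p like miR-497a-5p (0.97), miR-125b-2-3p (0.93) and miR-199a-5p (0.92). The likeness of the last 2 arms moved with 1 library: without day 7 contralateral replicate 1 the value for miR-27a-3p and miR-497a-5p was 0.73 and that for miR-24-3p and miR-199a-5p 0.64, whereas miR-27a-3p and miR-26b-5p still had 0.91. miR-27a-3p and miR-24-3p, which can share a transcript, had 0.91 with that library and 0.47 without it. The neighbours miR-23b-3p and miR-27b-3p had 0.07 with it and -0.10 without it, and miR-23a-3p and miR-27a-3p -0.14 and -0.41.

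Markers of other tissues differed between the groups compared above, and their part in the results was not tested. At day 7 the 5 erythroid miRNAs summed to 4771 to 6656 CPM in ACL libraries against 9923 to 14867 CPM in naïve and 8694 to 12533 CPM in contralateral libraries, with 2 of 5 lower in each comparison by limma-voom and none at 0. Of the 5 leukocyte miRNAs 1 was lower against naïve and none against the contralateral knee, with sums of 4384 to 5010 CPM in ACL, 2806 to 6763 CPM in naïve and 5302 to 11193 CPM in contralateral libraries. The 4 muscle miRNAs summed to 69609.5 to 133903 CPM in ACL, 67477 to 198861 CPM in naïve and 136656 to 249838 CPM in contralateral libraries, with none of 4 past the threshold and none at 0. The 2 endothelial arms summed to 57008 to 66643 CPM in ACL and 36497 to 69795 CPM in naïve libraries, and the 4 arms of the vascular mural miR-143 and miR-145a to 13882 to 17486 CPM and 10169 to 21196 CPM, with none called in either list. Deviations from group means over 18 libraries were also compared, for all 10 members. With the muscle sum the correlations ran from -0.84 for miR-27a-5p to 0.64 for miR-24-2-5p, with 0.64 for miR-27b-3p and -0.57 for miR-23b-5p. With the endothelial sum they ran from -0.80 for miR-27a-5p to 0.72 for miR-24-2-5p, with 0.54 for miR-27b-3p and -0.63 for miR-23b-5p. The erythroid sum gave -0.63 for miR-27a-3p to 0.54 for miR-23a-5p, with -0.53 for miR-27b-3p and 0.26 for miR-23b-5p. The cartilage sum gave -0.36 for miR-27b-5p to 0.78 for miR-27a-3p, with 0.42 for miR-27b-3p and -0.27 for miR-23b-5p. The leukocyte sum gave -0.54 for miR-23b-3p to 0.24 for miR-24-2-5p, and the vascular mural sum -0.44 for miR-27a-5p to 0.40 for miR-24-2-5p.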

How the data were processed

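Small RNA from pooled cartilage was measured in 18 libraries. The authors trimmed the reads with Trim Galore 0.6.6 after quality control with FastQC 0.11.9, aligned them to mature miRBase sequences with Bowtie 1.3.0 and counted them with SAMtools 1.12 (versions from the submitters' processing notes), and deposited raw read counts per mature miRNA, not normalised. The study names the nf-core small RNA-Seq pipeline, run with default settings apart from listed options. How reads that match several entries, or the opposite strand, were counted is not given in the sources used here. Each library of the table was given to the sample whose title carries its library number. The prefix before that number differs between table and titles, and no further identifier was at hand to check this. Groups came from the treatment labels.

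The counts were used as deposited. miRNAs were filtered with filterByExpr (minimum count 10, minimum total 15), scaled by TMM in edgeR 4.0.16 and tested with voom in limma 3.58.1 (R 4.3.3) with 1 mean per group over all 18 libraries and Benjamini-Hochberg adjustment within each comparison, threshold 0.05. The study's correlation for shared pools was not fitted because the labels do not give the pools. Arm ratios used limma with a trend on log2 ratios with 0.5 counts added. Ratios between copies and between cluster neighbours used two-sided exact permutation tests, which with 3 against 3 libraries cannot go below 0.1 and with 3 against 6 not below 0.0119. After adjustment a single ratio at either limit could not pass. CPM values are TMM-scaled. Alternatives were other scalings, filters, tests (edgeR quasi-likelihood, DESeq2 1.42.0), voom with quality weights, fits of only the groups compared, other added counts, medians, each library left out, and, added after seeing the data, the library total as covariate and the ratios between cluster neighbours. The scripts were tested on simulated data. Replicates were compared for duplicates: the 27 pairs within groups differed by a chi-square of 58.4 to 1326 per degree of freedom.

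All 10 members are described, and companions are miR-24-1-5p, which shares a member's seed, and the arms of miR-3074. miR-5124b and miR-6369 share the seed of miR-24-3p but did not pass the filter. Other miRNAs are named as the 3 most alike to each abundant arm or as members of the marker lists. The members, marker lists and tests were chosen with earlier results of these data known. Loci are from GENCODE vM21 and sequences from RefSeq, GRCm38, where 1184 of 1412 miRNAs of the table matched.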

Additional observations from a re-analysis of the deposited data

Results flagged for a closer look

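The naïve level of miR-24-3p contained 1 library far from the others: naïve replicate 1 held 13549.5 CPM, and the other 5 lay between 9918 and 10992 CPM. Its gap made up 0.704 of the group's range, above Dixon's 95% critical value for 6 samples. The test was run on 21 groups of values, of which chance flags about 1 in 20. Without naïve replicate 1 the log2 fold change of miR-24-3p between day 7 ACL and naïve cartilage was 0.29, beside 0.19 with it.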

How the results depend on the processing

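Against naïve cartilage at day 7, miR-23b-5p stayed higher and past the threshold in all 8 alternatives that could test it and in all 18 fits without a library, and miR-27b-3p in all 9 alternatives and in 16 of 18 such fits. Members called there numbered 1 of 8 with at least 10 counts in every library, a filter that miR-23b-5p did not pass, beside 48 of all 286 miRNAs tested. With quality weights they numbered 4 of 10, where miR-27a-5p and miR-27b-5p joined, beside 135 of all 428. With only the groups compared they numbered 3 of 9, where miR-27b-5p joined (0.74, adjusted p = 0.0312 by limma-voom with Benjamini-Hochberg adjustment). Without a library they numbered 1 to 3, beside 58 to 99 of all tested miRNAs. Against the day 7 contralateral knee they numbered 0 with library totals, with every miRNA of at least 1 count or with only the groups compared. They numbered 2 with the DESeq2 Wald test, quality weights or the library total as covariate. Without a library they numbered 0 to 2, beside 48 to 75 of all tested miRNAs. Between day 1 and day 7 they numbered 0 with library totals, every miRNA of at least 1 count, the DESeq2 Wald test or only the groups compared (of 9). They numbered 2 with quality weights or the library total as covariate. Without a library they numbered 0 to 2, beside 51 to 84 of all tested miRNAs. In each of the other comparisons no alternative called a member. The cause of these shifts was not tested. miRNAs called in all numbered 48 to 135 against naïve at day 7 (78 as reported), 38 to 78 against the contralateral knee (63) and 44 to 109 between day 1 and day 7 (67). The values of 48, 38 and 44 came from the filter of at least 10 counts in every library, out of 286 tested. Those of 135 and 109 came from quality weights, out of 428. Library totals in place of TMM moved the median of all log2 fold changes by -0.12 at day 7 and -0.22 at day 1 against naïve, and the share of higher calls between day 1 and day 7 from 77.6% to 94.2%.

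Several differences near 0 changed sign. Against the day 7 contralateral knee, miR-23b-3p was -0.037 with every miRNA of at least 1 count, -0.11 with quality weights and -0.00015 with the covariate, and miR-27a-3p was -0.032 with quality weights. Between day 1 and day 7, miR-27a-3p was -0.017 and miR-24-2-5p -0.013 with quality weights, and miR-24-2-5p -0.00093 with the edgeR quasi-likelihood test. With library totals miR-27b-3p was -0.099 in day 1 ACL against naïve, -0.065 against the day 1 contralateral knee, -0.085 in day 7 contralateral and -0.034 in day 1 contralateral against naïve, and miR-23b-5p was -0.099 in day 1 ACL against contralateral (-0.022 with quality weights). In day 1 contralateral against naïve miR-27b-3p was -0.023 with DESeq2 size factors, -0.042 with the DESeq2 Wald test, -0.097 with quality weights and -0.0093 with only the groups compared. With 5 counts added, the arm ratio of miR-27b against naïve was 0.015 and that of miR-23a against the day 7 contralateral knee -0.093. With group medians, the a to b ratio of miR-23-3p was 0.023 against the day 7 and 0.026 against the day 1 contralateral knee, that of miR-27-3p -0.74 against the day 7 contralateral knee, that of miR-27-5p 0.0078 against naïve, and miR-27a-3p to miR-23a-3p -0.18 against the day 7 contralateral knee.

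With each library left out in turn, differences that changed sign or call had these ranges. Against the day 7 contralateral knee miR-23a-5p ran from -0.76 to 0.035, miR-23b-3p from -0.12 to 0.15 and miR-27a-3p from -0.062 to 1.16. Between day 1 and day 7 miR-23a-5p ran from -0.11 to 0.59, miR-23b-3p from -0.21 to 0.014 and miR-24-2-5p from -0.15 to 0.62. miR-27b-3p ran from -0.12 to 0.23 in day 1 ACL and from -0.14 to 0.054 in day 1 contralateral against naïve, from -0.10 to 0.24 between the day 1 knees and from -0.077 to 0.13 in day 7 contralateral against naïve, and miR-23b-5p from -0.13 to 0.31 between the day 1 knees. Arm ratios ran from -0.13 to 0.083 for miR-27b against naïve; from -0.26 to 0.41 for miR-23a, -0.79 to 0.46 for miR-27a and -0.019 to 0.68 for miR-24-2 against the day 7 contralateral knee; and from -1.40 to -1.15 for miR-23b, -0.90 to 0.19 for miR-27a, -0.15 to 0.60 for miR-27b and -0.44 to 0.35 for miR-24-2 between day 1 and day 7. The a to b ratio of miR-23-3p ran from -0.0045 to 0.053 against naïve, -0.30 to 0.023 between the day 7 knees and -0.047 to 0.047 between the day 1 knees, that of miR-27-3p from -0.69 to 0.52 and -0.041 to 0.14 between the day 7 and the day 1 knees, and that of miR-27-5p from -0.17 to 0.093 against naïve and -0.21 to 0.12 between the day 1 knees. miR-27b-3p to miR-23b-3p ran from -0.031 to 0.54 between the day 1 knees, and miR-27a-3p to miR-23a-3p from -0.010 to 1.34 between the day 7 and -0.025 to 0.61 between the day 1 knees.

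No paired analysis was possible because the labels give no replicate numbers or pools that link injured and contralateral libraries. The miR-23b arm ratio could not be fitted with at least 10 counts of both arms in every library, so its change rests on low 5p counts, and miR-23a-5p and miR-23b-5p are limited by depth in all comparisons.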
